A study of Homo sapiens with 42 samples.

Results

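Genes of microRNA (miRNA) known from work on monocyte and macrophage maturation, 10 in all, were followed through a small RNA sequencing data set: MIR21, MIR22, the pair MIR132 and MIR212, the pair MIR221 and MIR222, the pair MIR424 and MIR503, and the pair MIR29A and MIR29B1. They were chosen by name, as the rows of the count table that carry the gene's symbol, are annotated as miRNA or precursor RNA and are at most 500 bases long. That gave 10 rows, 1 for each gene, of 175946 rows in all and of 4234 miRNA rows that do not overlap another small RNA. The study knocked out POLR3G and POLR3GL, alternative subunits of RNA polymerase III, in THP-1 cells, a human monocytic leukaemia line, and lowered POLR3G in HEK293T cells, a human embryonic kidney line. Its labels describe 42 samples in 14 groups of 3, and the table holds columns for 30 of them, 10 groups of 3. The labels give no genotype for A4, A7, E4 or G8, the groups of THP-1 cells, so which subunit each lacks, and whether each is 1 clone, is not known here. The group labelled mock is, by its labels, HEK293T cells transfected with 200 nM of a control antisense oligonucleotide. Every group was sequenced without and with treatment of the RNA by Antarctic phosphatase and polynucleotide kinase (PNK), which turn blocked RNA ends into ones an adapter can be joined to. The con groups and those with the oligonucleotide against POLR3G, 12 samples, are not analysed here, so no group is compared with its own untreated parent. The labels do not say that the 3 libraries of a group come from separate cultures, so p-values reflect no more than the spread among these libraries, which may be technical.

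A miRNA is cut from a hairpin precursor by Drosha and Dicer, and 1 strand is loaded into an Argonaute protein, where its seed, bases 2 to 8, pairs with target mRNAs and lowers their output. Because Dicer leaves a 5′ phosphate and a 3′ hydroxyl, miRNA can be ligated without end repair. In myeloid cells miR-424 and miR-222 are known to rise when the transcription factor PU.1 drives monocytes to mature, miR-22 and miR-29 are known for their part in monocytic differentiation, miR-21 and miR-132 rise in macrophages after inflammatory signals, and miR-221 and miR-222 are known to target the stem cell factor receptor KIT and the cell cycle inhibitor p27.

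The mature strand best known for each gene is shown here because the seeds show which members can share targets. The sequences are those of RefSeq on GRCh38.p14, which matched 10 of 10 symbols, and the capitals mark the seed.
hsa-miR-21-5p: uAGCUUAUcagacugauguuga
hsa-miR-22-3p: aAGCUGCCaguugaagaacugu
hsa-miR-132-3p: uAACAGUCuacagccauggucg
hsa-miR-212-3p: uAACAGUCuccagucacggcc
hsa-miR-221-3p: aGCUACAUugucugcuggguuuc
hsa-miR-222-3p: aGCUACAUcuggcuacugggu
hsa-miR-424-5p: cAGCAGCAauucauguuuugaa
hsa-miR-503-5p: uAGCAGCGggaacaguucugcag
hsa-miR-29a-3p: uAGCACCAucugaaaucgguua
hsa-miR-29b-3p: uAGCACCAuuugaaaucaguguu
MIR132 and MIR212 share the seed AACAGUC, and MIR221 and MIR222 share GCUACAU. MIR29A and MIR29B1 share AGCACCA with miR-29c. The seed of miR-424-5p, AGCAGCA, is also that of miR-15a, miR-15b, miR-16, miR-195, miR-497 and miR-6838, while that of miR-503-5p, AGCAGCG, differs in its last base and was found in no other entry. The mature miR-29b-3p is also made from MIR29B2, so the counts of MIR29B1 are uncertain to the extent that these genes share reads.

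The pairs lie side by side in the genome. On GRCh38, MIR132 (chr17:2049918-2050001, minus strand) and MIR212 (chr17:2050277-2050365) are 275 bases apart, and MIR221 (chrX:45746221-45746242, minus strand) and MIR222 (chrX:45747073-45747094) are 830 bases apart inside a row of the noncoding RNA MIR222HG. MIR424 (chrX:134546680-134546701, minus strand) and MIR503 (chrX:134546371-134546393) are 286 bases apart, with rows of MIR503HG over both. MIR29A (chr7:130876786-130876807, minus strand) and MIR29B1 (chr7:130877507-130877530) are 699 bases apart. MIR22 (chr17:1713903-1713987, minus strand) lies within rows of its host MIR22HG. MIR21 (chr17:59841311-59841331, plus strand) has no partner among the members, and no other row of the count table lies over it. The rows of 7 members span only 1 arm of the hairpin, and for MIR21, MIR221, MIR222, MIR29A and MIR29B1 the strand printed above lies 16, 18, 16, 16 and 17 bases outside the row. The counts nevertheless hold both arms: over 84 hairpins in the table whose arms are at most 20 bases apart, the row of 1 arm held a median of 100% of the count over the whole hairpin, and 77 of them held at least 99%. With arms 26 or more bases apart the median was 14.9% (14 hairpins). The arms of the members are 14 to 17 bases apart wherever RefSeq lists both, so a member's count is read here as that of its hairpin, with the arms not told apart.

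The libraries without PNK held 9639699 to 13257776 counts over rows that do not overlap, and those with PNK 5275687 to 7546551. Without PNK, miRNA made up 13.3% to 25.96% of counts in 13 of 15 libraries, but 2.27% and 2.13% in G8 libraries 1 and 2, against 19.1% in G8 library 3. Results that use G8 are therefore given with and without those libraries. When they are left out G8 has 1 library, which is assumed to vary like the other groups. With PNK, miRNA made up 0.219% to 1.19% of counts. The libraries labelled mock held miRNA of blood cells without PNK: MIR142, which marks haematopoietic cells, stood at 2683 ± 811 CPM (counts per 1000000, mean ± SD, n = 3) in mock and 1978 ± 482 in A4, and MIR223 at 413 ± 49.1 in mock and 292 ± 43.1 in A4. The sum of 4 haematopoietic miRNA was 5192 to 7410 CPM in mock and 5488 to 9934 in A4, A7 and E4, none of the 4 being at 0. A list of 9 epithelial miRNA summed to 180 to 250 CPM in mock and 178 to 333 in A4, A7 and E4, with MIR205 at 0 in all 4 groups. Both sums overlap between mock and A4, so the cell line that the label names for mock is uncertain here. The comparisons with mock follow the labels, by which they cross cell lines, and the part of the cell line in them was not tested.

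Without PNK the members spanned a wide range. Over the 15 libraries MIR21 had 1109680 counts, followed by MIR222 with 169419, MIR221 with 121996, MIR29A with 66381, MIR22 with 11929, MIR132 with 1696, MIR424 with 1601, MIR29B1 with 1094, MIR503 with 619 and MIR212 with 138. Together they made up 4.84% to 6.81% of miRNA counts in 13 libraries and 2.66% and 3.01% in G8 libraries 1 and 2. The depth behind MIR212 is at most 25 counts in a library, so only large differences were detectable for it.

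**Figure D1:**
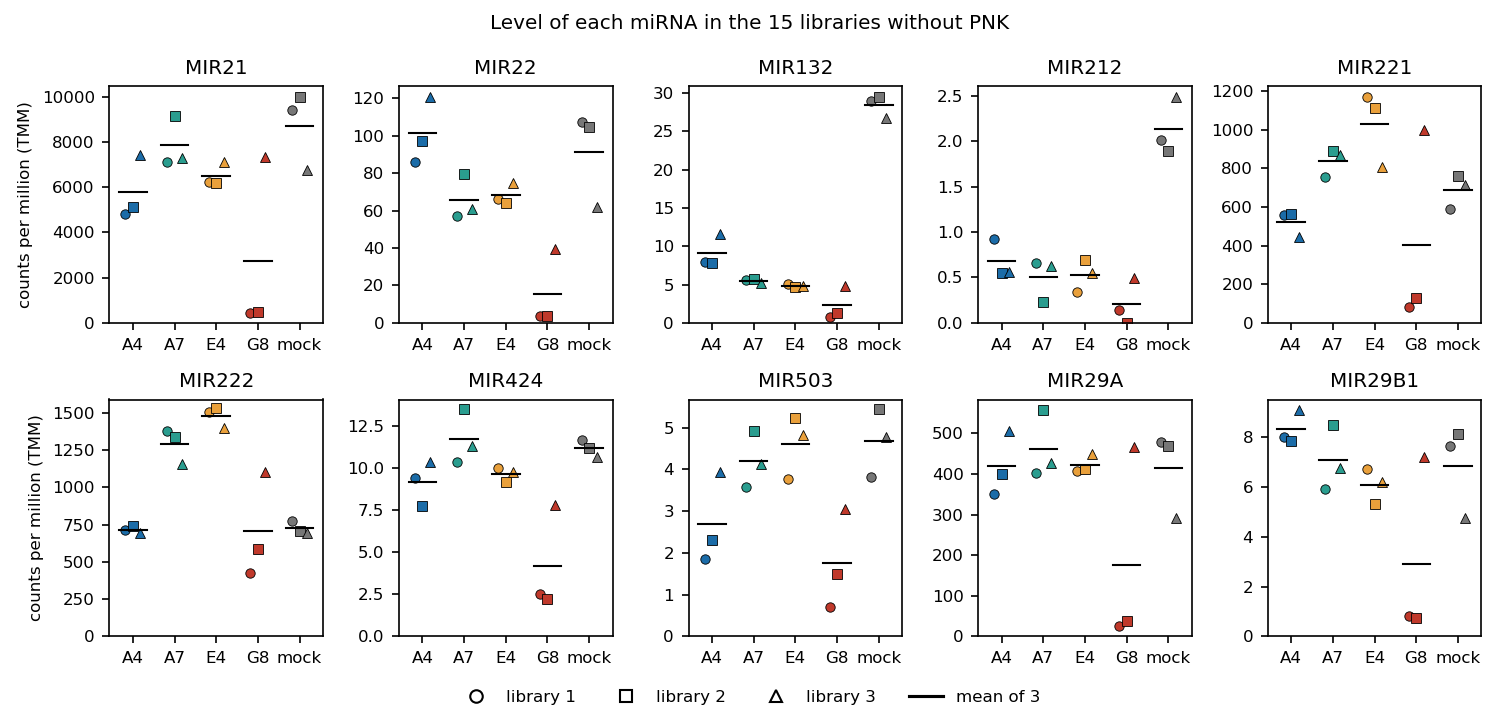
CPM of each miRNA (vertical axis, linear, scaled by the trimmed mean of M values) in the 15 libraries without PNK, by group (horizontal axis); symbols are libraries 1 to 3 and the bar is their mean. G8 libraries 1 and 2 lie below G8 library 3 in all 10 panels, MIR132 and MIR212 are highest in mock, and MIR222 is lower in A4 than in A7 and E4.

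MIR132 and MIR212, which come from 1 locus and share a seed, separated the libraries labelled mock from every THP-1 group. MIR132 had 302, 358 and 270 counts in the 3 mock libraries, 103, 85 and 124 in A4, 77, 74 and 74 in A7, 60, 54 and 53 in E4, and 6, 7 and 49 in G8. The mock libraries lay above all 12 THP-1 libraries, with a mean of 28.4 ± 1.42 CPM. The means were 4.86 ± 0.17 CPM in E4, 5.49 ± 0.28 in A7 and 9.14 ± 2.17 in A4. MIR212 had 21, 23 and 25 counts in mock and between 0 and 12 in the THP-1 libraries, so these groups do not overlap either. In bulk libraries such as these, fewer cells that make a miRNA and less of it in each cell cannot be told apart.

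Each group was compared with mock by edgeR's quasi-likelihood test over the 15 libraries without PNK, adjusted by Benjamini-Hochberg over 1810 features. The 4 comparisons share the mock libraries. MIR212 did not pass the filter on low counts among the THP-1 groups alone and passed here through mock, where it is high. Its differences from mock are therefore a description, and the counts of members called against mock, which include it, are read in the same way. In E4, 2 of 10 members were called, both lower (4.31% of all features were called, 3.2% as lower). MIR132 was lower by a log2 difference of -2.55 (SE 0.43, adjusted p = 0.00846). MIR212 was at -1.99 (SE 0.47, edgeR adjusted p = 0.0305, and 0.134 with no filter). In A7, 1 member was called (0.387% of features, 0.221% as lower), MIR132 at -2.37 (SE 0.43, adjusted p = 0.0338), and the call was lost with replicate number as a block (-2.37, adjusted p = 0.0736). That block is 1 effect of number shared by all 15 libraries. Same-numbered libraries of A7 and mock deviate together, but those of mock run opposite to A4, E4 and G8, so the block describes only part of them. In A4 the count was 0 (background 1.44%), with 2 members at an unadjusted p under 0.05 and 1 called by DESeq2. MIR132 was at -1.64 (SE 0.41, edgeR adjusted p = 0.0656). Leaving out G8 libraries 1 and 2 gave like differences for A4, A7 and E4 with smaller errors, since all groups share 1 estimate of the spread, while G8 minus mock went from -3.54 to -2.56 for MIR132 and from -3.00 to -2.09 for MIR212. MIR132 was then lower in A4 (-1.55, SE 0.17, adjusted p = 0.000853), A7 (-2.30, SE 0.17, adjusted p = 5.13e-05), E4 (-2.52, SE 0.18, adjusted p = 1.1e-05) and G8 (-2.56, SE 0.28, adjusted p = 0.00076). MIR212, again admitted through mock, was at -2.09 in G8, -1.97 in both A7 and E4, and -1.51 in A4. Of all 2099 features, 10.4%, 4.86%, 13.3% and 8.58% were called in those fits, and 4.95%, 2.1%, 7.48% and 6.86% as lower.

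With all 15 libraries the call of MIR132 in A7 was lost without any 1 of 12 libraries of A4, A7, E4 or mock, at edgeR adjusted p-values from 0.0554 without A4 library 3 to 0.278 without A7 library 1, while the log2 difference stayed between -2.40 and -2.26. In E4 it was lost without E4 library 1 (0.0606), E4 library 2 (0.0745) or mock library 2 (0.0505). The call of MIR212 in E4 was lost without any of 11 libraries, from 0.0504 without A4 library 3 to 0.175 without E4 library 1.

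Among the THP-1 groups MIR132 was highest in A4. As a share of miRNA, given as miRNA-CPM or counts per 1000000 miRNA counts, it stood at 58.5, 55.9 and 70.8 in A4, 33.3, 29.3 and 29.7 in A7, 27.7, 26.7 and 26.02 in E4, and 23, 31.3 and 25.99 in G8. On this scale G8 libraries 1 and 2 lie with library 3, and A4 does not overlap the other THP-1 groups. In mock the values were 171, 166 and 186. Tested over the 4 THP-1 groups, MIR132 had an adjusted p of 0.0517 (edgeR, 12 libraries) and 0.0162 without G8 libraries 1 and 2. With replicate number as a block it was called (adjusted p = 0.0458), as were MIR22 (0.0496) and MIR503 (0.0462), though of these groups same-numbered libraries deviate together in A4 and E4 alone. In that second fit MIR132 was higher in A4 than in A7 by 0.82 (SE 0.19, adjusted p = 0.0107) and than in E4 by 0.89 (SE 0.19, adjusted p = 0.0159). When the scaling factors were also taken from miRNA rows alone (miRNA factors), an alternative chosen after seeing the data, the differences were 1.11 (edgeR adjusted p = 0.00135) and 1.24 (adjusted p = 0.00172). The ratio of MIR132 to MIR212 within a library, which does not depend on scaling, did not differ detectably among these groups (exact permutation test of the spread of group means over 369600 assignments of 12 libraries, p = 0.719, and 0.719 adjusted over 4 loci).

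**Figure D2:**
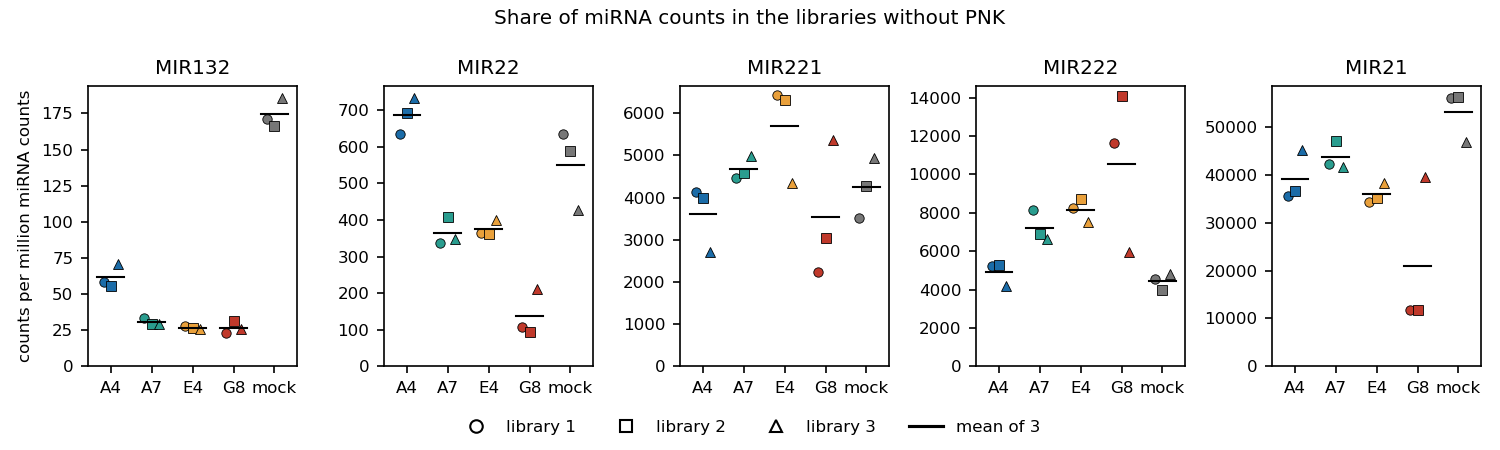
miRNA-CPM (vertical axis, linear) of MIR132, MIR22, MIR221, MIR222 and MIR21 in the libraries without PNK, by group; symbols are libraries 1 to 3 and the bar is their mean. MIR132 falls in 3 levels, mock at 166 to 186, A4 at 55.9 to 70.8 and the rest at 33.3 or less, and G8 libraries 1 and 2 hold the highest share of MIR222 and the lowest of MIR21.

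MIR221 and MIR222, which share a seed and a transcript, were lower in A4 than in A7 and E4 once G8 libraries 1 and 2 were left out. MIR222 stood at 712, 743 and 691 CPM in the A4 libraries, 1377, 1335 and 1159 in A7, 1505, 1534 and 1395 in E4, 423, 589 and 1106 in G8, and 772, 709 and 695 in mock. The A4 and mock libraries lay in 1 narrow range, below all those of A7 and E4. MIR221 stood at 560, 561 and 444 CPM in A4, 756, 887 and 869 in A7, 1171, 1113 and 809 in E4, 81.0, 127 and 999 in G8, and 591, 760 and 712 in mock. Its A4 libraries lay below those of A7 and E4, and those of mock lay above A4 and below E4.

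With all 12 THP-1 libraries MIR222 missed the threshold across groups (edgeR adjusted p = 0.0505), as did its differences of A4 from A7 (-0.85, SE 0.36, adjusted p = 0.129) and E4 (-1.02, SE 0.36, adjusted p = 0.205). Without G8 libraries 1 and 2 MIR222 differed across groups (adjusted p = 0.00452) and was lower in A4 than in A7 (-0.77, SE 0.14, adjusted p = 0.00478) and E4 (-1.07, SE 0.14, adjusted p = 0.00206). MIR221 was lower in A4 than in A7 (-0.60, SE 0.19, edgeR adjusted p = 0.0377) and E4 (-1.01, SE 0.19, adjusted p = 0.011) in that fit. The median of 361 miRNA moved the same way, with a log2 difference of -0.37 between A4 and A7 and -0.35 between A4 and E4 with all libraries. Under miRNA factors and without G8 libraries 1 and 2, MIR222 was at -0.45 (adjusted p = 0.0574) and -0.69 (adjusted p = 0.023), and MIR221 at -0.26 (adjusted p = 0.399) and -0.62 (adjusted p = 0.0859). In miRNA-CPM MIR222 was 5251, 5293 and 4204 in A4, 8141, 6883 and 6651 in A7 and 8271, 8699 and 7514 in E4, so the A4 libraries stayed below the others on that scale. Markers of fibroblasts lay the same way: 4 fibroblast miRNA, none at 0, summed to 31.3 to 40.8 CPM in A4, 127 to 173 in A7 and 151.5 to 163 in E4. With all libraries edgeR called 0 of the 3 tested between A4 and A7 or E4 (11.7% and 0.964% of all features). The 9 epithelial miRNA went the other way, at 220.6 to 333 CPM in A4, 178 to 218.9 in A7 and 206 to 239 in E4, where A4 overlaps E4. The 4 haematopoietic miRNA summed to 5488 to 7526 CPM in A4, 8174 to 9934 in A7 and 7377 to 8352 in E4, so that A4 lies below A7 and overlaps E4. The part of any of these lists in the result was not tested.

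Against mock, MIR222 was higher in A7 (0.90, SE 0.14, edgeR adjusted p = 0.00398) and E4 (1.05, SE 0.14, adjusted p = 0.000919) without G8 libraries 1 and 2, where 2.76% and 5.81% of features were called as higher. With all 15 libraries these differences were 0.83 (adjusted p = 0.333) and 1.03 (adjusted p = 0.0703), and were not called. In A4 MIR222 was at -0.02 (SE 0.31, adjusted p = 0.977).

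The A4 libraries lay below those of A7 and E4 in MIR222 with PNK too. There it stood at 55.1, 47.6 and 57.6 CPM in A4, 134, 87.9 and 78.0 in A7, 98.7, 95.9 and 94.0 in E4, 23.3, 14.3 and 43.7 in G8, and 35.9, 25.9 and 24.2 in mock. The A4 libraries lay above those of G8 and mock. As a share of miRNA it was 5807 to 5966 miRNA-CPM in A4 against 9935 to 11661 in A7, 10149 to 10550 in E4, 5305 to 7802 in G8 and 5832 to 6595 in mock, so that A4, G8 and mock overlap while A7 and E4 stand above. The test across the 12 THP-1 libraries with PNK called MIR222 (edgeR adjusted p = 0.00317, and 0.0113 without G8 libraries 1 and 2). Against mock it was higher in A7 by 1.81 (SE 0.32, adjusted p = 0.00391) and in E4 by 1.75 (SE 0.32, adjusted p = 0.00247). In A4 MIR222 was at 0.90 against mock (SE 0.31, edgeR adjusted p = 0.0768) with all libraries. That difference was 0.89 without G8 libraries 1 and 2, and -0.10 under miRNA factors. MIR221 with PNK had 23 to 151 counts and was higher than mock in E4 by 1.64 (SE 0.31, edgeR adjusted p = 0.00326). It was also called in A4 (1.06, SE 0.32, adjusted p = 0.0362) and A7 (1.12, SE 0.31, adjusted p = 0.0476). Under miRNA factors these differences were 0.62 in E4 (adjusted p = 0.098), 0.04 in A4 and 0.05 in A7. The A4 and A7 calls were also lost with library totals (0.53 and 0.87) and with a replicate block (adjusted p = 0.0534 and 0.0673), and without 7 and 10 single libraries respectively. Markers of blood cells moved the same way with PNK: the 4 haematopoietic miRNA summed to 85.6 to 87.2 CPM in mock, 366 to 418 in E4, 306 to 584 in A7 and 185.5 to 331 in A4, none at 0, and their part in the result was not tested. Of all 9170 features 11.2%, 4.95% and 7.8% were called for A4, A7 and E4, and 8.38%, 3.21% and 5.32% as higher, against 1, 2 and 2 of the 4 members tested. The median of 220 miRNA was 0.94, 0.94 and 0.96 higher than mock in these groups. In G8 the edgeR test called 0 members against mock with PNK (background 5.45%), with 1 at an unadjusted p under 0.05 and 0 by DESeq2.

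The ratio of MIR222 to MIR221 split the libraries in another way. In counts it was 0.933 to 1.82 in 13 libraries without PNK, with a median of 1.32, and 5.22 and 4.65 in G8 libraries 1 and 2 (3030 against 581 counts and 3151 against 678). With PNK it was 2.32 to 8.21 in all 15 libraries, with a median of 4.57. G8 library 3 without PNK had 11225 counts of MIR222 and 10135 of MIR221, a ratio within the range of the other groups. No difference in the ratio was detectable among the THP-1 groups (exact permutation test, p = 0.175, adjusted over 4 loci 0.299). Without G8 library 3, when G8 is represented by the pair low in miRNA, a difference was called (exact permutation test, adjusted p = 0.0227), and without libraries 1 and 2 the adjusted p was 0.452.

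MIR22, which is made from the noncoding host MIR22HG, was highest in A4 and mock and lowest in G8. It had 1116, 1051 and 1285 counts in A4, 778, 1034 and 870 in A7, 789, 733 and 817 in E4, 28, 21 and 398 in G8, and 1119, 1268 and 622 in mock. As a share of miRNA it was 634, 691 and 734 miRNA-CPM in A4 against 336 to 409 in A7 and 362 to 401 in E4, which do not overlap A4, and 107, 93.9 and 211 in G8, where all 3 libraries lay below every other. Mock ranged from 428 to 635. Without G8 libraries 1 and 2 MIR22 differed across the THP-1 groups (edgeR adjusted p = 0.0194, against 0.0743 with all 12) and was higher in A4 than in A7 by 0.71 (SE 0.18, adjusted p = 0.0173), with A4 minus E4 at 0.55 (adjusted p = 0.0809). Under miRNA factors in that fit both differences were called, at 1.02 (adjusted p = 0.00116) and 0.91 (adjusted p = 0.00325). With PNK MIR22 had at most 16 counts in a library.

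G8 library 3, the G8 library with miRNA in the range of the other groups, was lower in MIR22 than A4 (A4 minus G8 1.23, SE 0.28, edgeR adjusted p = 0.0145) and than mock (-1.22, SE 0.34, adjusted p = 0.0492), and higher than A4 in MIR221 (A4 minus G8 -1.07, SE 0.26, adjusted p = 0.0175) and MIR222 (-0.77, SE 0.19, adjusted p = 0.0212). That is 1 library against 3, with the spread taken from the other groups, and in that fit 18.5% of features were called between A4 and G8, 8.44% as higher in A4 and 10.1% as lower. Between A7 and G8 and between E4 and G8 edgeR called 0 members (3.97% and 6.13% of features), with 0 and 1 at an unadjusted p under 0.05. Under miRNA factors MIR22 was called for A4 minus G8 as well (1.88, adjusted p = 0.000462), while MIR221 and MIR222 were at -0.39 and -0.10 (adjusted p = 0.371 and 0.782).

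With all 3 G8 libraries, 4 members besides MIR222 were called as higher in another THP-1 group than in G8: MIR22 in A4 (2.72, SE 0.77, edgeR adjusted p = 0.0259), MIR132 in A4 (1.99, SE 0.51, adjusted p = 0.0172), MIR424 in A7 (1.53, adjusted p = 0.0247) and MIR503 in E4 (1.41, adjusted p = 0.0497). MIR222 was called in E4 (1.13, adjusted p = 0.0439). These are 2, 1 and 2 of 9 members tested for A4, A7 and E4, where 23.8%, 26.8% and 22.2% of all 1764 features were called, and 15.6%, 15.9% and 12.9% as higher. The median of all features stood 0.25, 0.25 and 0.20 above G8 in these comparisons, and that of 361 miRNA 0.59, 0.99 and 0.95 above. With TMM factors, all but MIR22 in A4 rest on G8 libraries 1 and 2. Without either, at least 1 of these calls is lost in each comparison, MIR22 included (adjusted p = 0.0514 and 0.0688). Without both, MIR22 was called (1.23, adjusted p = 0.0145), while MIR132 was at 0.78 (adjusted p = 0.0802), MIR424 at 0.37 (0.391), MIR222 at 0.30 (0.424) and MIR503 at 0.48 (0.528). With miRNA factors and without both, MIR132 was called as well (1.42, edgeR adjusted p = 0.0027). Single libraries of the other groups decide several too. MIR22 in A4 was lost without A4 library 2 (0.0579), MIR424 in A7 without A7 library 1 (0.0595) or 2 (0.0753), MIR503 in E4 without any of 10 libraries (0.0577 without A4 library 1 to 0.171 without G8 library 2) and MIR222 in E4 without any library but G8 library 3 (0.0504 to 0.179). Without G8 library 3, on the other hand, all 9 members tested were called against G8 in each of A4, A7 and E4. G8 then consists of libraries 1 and 2, which are low in miRNA. The share of all features called in that fit is not given here, so this count is a description of those libraries. Under miRNA factors MIR222 turned to -0.35 in E4 minus G8 (adjusted p = 0.457). Against mock, 5 of 10 members were lower in G8 (27.2% of features were called, 16.1% as lower): MIR132 by -3.54 (SE 0.46, adjusted p = 0.000362), MIR212 by -3.00, MIR22 by -2.52, MIR424 by -1.38 and MIR503 by -1.36. MIR212 passed the filter through mock, where it is high, so its difference and the counts that include it are a description. The MIR22 call was lost without mock library 1 (0.0622) or 2 (0.0566), and those of MIR424 (0.0529 to 0.0599) and MIR503 (0.0553 to 0.115) without G8 library 1 or 2 or mock library 1 or 2. Without G8 libraries 1 and 2, 3 of the 5 were called, MIR424 and MIR503 being at -0.53 (adjusted p = 0.216) and -0.63 (adjusted p = 0.408).

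The first 2 G8 libraries differ from the third among miRNA themselves, not only in their total. In miRNA-CPM MIR21 was 11738 and 11799 in them and 39567 in library 3, MIR29A 736 and 930 against 2503, and MIR221 2227 and 3033 against 5375, while MIR222 was 11616 and 14094 against 5953. With PNK, MIR21 was 8815 to 21218 miRNA-CPM over the 15 libraries and MIR29A 403 to 1757, ranges that hold the values of these G8 libraries. MIR221 (1079 to 2554 with PNK) and MIR222 (5305 to 11661) did so for library 1, but library 2 lay above both ranges. The miRNA share of both libraries, 2.27% and 2.13%, was above that of every library with PNK. The kept counts of G8 libraries 1 and 2, 11508927 and 10491335, lay in the range of the libraries without PNK.

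MIR21, one of the most studied miRNA of activated macrophages, and MIR29A were not called between groups without PNK in the fits with all libraries or without G8 libraries 1 and 2 (TMM factors). MIR21 stood at 4827, 5132 and 7420 CPM in A4, 7138, 9139 and 7272 in A7, 6240, 6183 and 7110 in E4, 427, 493 and 7354 in G8, and 9434, 9999 and 6752 in mock. Apart from G8 the groups overlap, except E4 and A7, whose nearest libraries stand at 7110 and 7138 (edgeR adjusted p across the THP-1 groups = 0.478). As a share of miRNA, MIR21 was 46830 to 56282 miRNA-CPM in mock, above A4 (35582 to 45135) and E4 (34287 to 38291) and overlapping A7 (41712 to 47128). MIR29A stood at 350, 400 and 505 CPM in A4, 403, 557 and 426 in A7, 406.5, 412 and 449 in E4, 26.8, 38.9 and 465 in G8, and 479, 470 and 291 in mock (adjusted p = 0.476). With PNK both were called across the THP-1 groups (3 of 4 members tested, with 22.1% of features): MIR21 at 137, 91.9 and 170 CPM in A4, 259, 160 and 121 in A7, 101, 113 and 130 in E4 and 36.0, 23.7 and 69.2 in G8 (edgeR adjusted p = 0.00767), and MIR29A at 4.88 to 10.6 CPM in the first 3 groups and 1.34, 1.10 and 4.71 in G8 (adjusted p = 0.0273). In both, the G8 libraries lie below those of the other 3 groups, and without G8 libraries 1 and 2 the adjusted p-values were 0.107 and 0.283. The MIR29A call was also lost without A4 library 1 (0.0629), G8 library 1 (0.0955) or G8 library 2 (0.0952), and with factors from miRNA rows alone (0.122) or library totals (0.0808). Mock with PNK had 100, 71.0 and 61.0 CPM of MIR21, below all libraries of A7 and E4, and A7 minus mock was 1.22 (SE 0.36, edgeR adjusted p = 0.0617). That difference was called with DESeq2 (adjusted p = 0.0362), with no filter (0.000815) and without G8 libraries 1 and 2 (0.021), and was 0.15 under miRNA factors (adjusted p = 0.681).

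MIR29B1 was low, and its level depended on the scale. It had 104, 85 and 97 counts in A4, 81, 111 and 97 in A7, 80, 61 and 68 in E4, 6, 4 and 73 in G8, and 80, 99 and 48 in mock, so the E4 libraries lay below those of A4 and A7, while mock overlaps all of A4, A7 and E4. In CPM E4 (5.31 to 6.71) lay below A4 (7.84 to 9.11) and overlapped A7 (5.92 to 8.52). As a share of miRNA it was 55.4 to 59.1 miRNA-CPM in A4 and 30.1 to 43.9 in A7 and E4, which do not overlap A4. Under miRNA factors and without G8 libraries 1 and 2 it differed across groups (edgeR adjusted p = 0.0121) and was higher in A4 than in A7 by 0.64 (adjusted p = 0.0116) and than in E4 by 0.80 (adjusted p = 0.00941). With the main factors it was not called across groups (0.276 with all 12 libraries, 0.201 without those of G8). MIR29B2, the other gene of miR-29b-3p, was at 6.08 ± 2.04 CPM in mock, 4.92 ± 0.12 in E4, 5.78 ± 1.01 in A7 and 6.39 ± 1.12 in A4, where MIR29B1 averaged 6.07 to 8.32 CPM. The ratio of MIR29A to MIR29B1 did not differ detectably (exact permutation test, p = 0.0776, adjusted over 4 loci 0.299), but did without G8 library 3 (adjusted p = 0.0138).

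MIR424, a target of PU.1, and its neighbour MIR503 were low in all libraries. MIR424 had 122, 84 and 110 counts in A4, 142, 176 and 162 in A7, 119, 105 and 107 in E4, 18, 12 and 79 in G8, and 122, 136 and 107 in mock. Its share of miRNA was 41.9 to 73.7 miRNA-CPM in the libraries other than G8 libraries 1 and 2, whose values (69.004 and 53.7) fall inside that range. The E4 libraries (51.8 to 54.9) lay just below those of A4, A7 and mock. MIR503 had 24, 25 and 42 counts in A4, 49, 64 and 59 in A7, 45, 60 and 53 in E4, 5, 8 and 31 in G8, and 40, 66 and 48 in mock. In counts its A4 libraries lay below those of A7 and E4, but not in CPM. There A4 library 3 (3.94 CPM) lay above A7 library 1 (3.58) and E4 library 1 (3.78). In miRNA-CPM it did so too (23.99 against 21.2 and 20.7). With all libraries neither difference of A4 from A7 or E4 was called (-0.64, edgeR adjusted p = 0.358, and -0.75, adjusted p = 0.476). Without G8 libraries 1 and 2 these differences were -0.56 and -0.80, also not called. The ratio of MIR424 to MIR503 did not differ detectably (exact permutation test, p = 0.225, adjusted over 4 loci 0.299).

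Over the 4 THP-1 groups and all 12 libraries edgeR called 0 of 9 members tested (32.4% of 1764 features), with 5 members at an unadjusted p under 0.05. DESeq2 called 3 of the 6 members it gave a p, and 910 of the 1764 features. MIR212 did not pass the filter on low counts. For the edgeR fit without G8 library 3 the share of all features called is not given here. Without G8 libraries 1 and 2 it called 4 of 9, MIR22, MIR132, MIR221 and MIR222 (31.6% of 2038 features), and without G8 library 3 it called 9. Between A4 and A7 it called 0 of 9 with all libraries (background 11.7%, with 1 member at an unadjusted p under 0.05 and 0 by DESeq2) and 4 without G8 libraries 1 and 2 (background 34%, or 21.1% as higher and 12.8% as lower). Between A4 and E4 it called 0 (background 0.964%, with 1 at an unadjusted p under 0.05 and 1 by DESeq2) and 3 without them (background 12.3%, or 4.42% as higher and 7.9% as lower). Between A7 and E4 it called 0 in both fits (background 0.113% and 2.5%, with 0 at an unadjusted p under 0.05 in either and 0 by DESeq2 with all libraries), with log2 differences from -0.27 to 0.31 with all libraries.

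**Figure D3:**
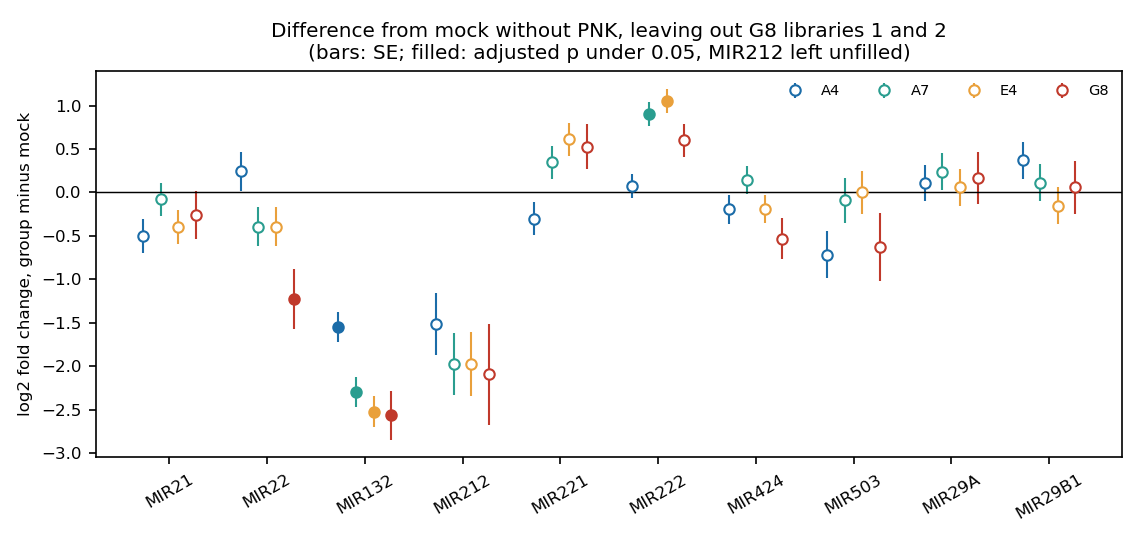
Log2 fold change of each group minus mock (vertical axis) for the 10 miRNA (horizontal axis) without PNK, leaving out G8 libraries 1 and 2; bars are the SE and filled points have an edgeR adjusted p under 0.05, with MIR212 left unfilled because it passed the filter through mock alone. MIR132 and MIR212 lie between -2.56 and -1.51 in all 4 groups, and MIR222 is higher in A7 and E4, at 0.90 and 1.05.

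With PNK the members were far less abundant. MIR21 went from a median of 74609 counts without PNK to 597 with it, MIR222 from 9242 to 325, and MIR221 from 8874 to 67. MIR212 had 3 counts in all 15 libraries with PNK, 1 in each mock library, and was at 0 in 12 of them. In a model of group and arm over the 30 libraries all 10 members were lower with PNK (edgeR, 93.3% of 11438 features called, 14.3% as lower), from -6.98 for MIR503 (SE 0.28) to -9.61 for MIR22 (SE 0.42). These sizes depend on the scaling: the median of all features was 2.86 higher with PNK by TMM, 4.78 with DESeq2 size factors, 5.70 with library totals and 9.15 with factors from miRNA rows alone. All 10 members were lower with the first 3 of these.

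Relative to other miRNA, the members differed in their change with PNK. On factors from miRNA rows alone, MIR22 (-2.36), MIR29A (-2.27), MIR221 (-2.16), MIR21 (-2.15) and MIR132 (-1.78) were lower with PNK than without by more than 1.5 log2 units, MIR222 was lower by -0.51 (SE 0.20, edgeR adjusted p = 0.0128), and MIR212 (-0.83), MIR424 (-0.45), MIR29B1 (-0.11) and MIR503 (0.16) were not called. Over the 15 libraries with PNK, MIR212 had 3 counts, MIR132 18, MIR503 28, MIR29B1 44, MIR424 49 and MIR22 91, so depth limits their differences. The direction of MIR222 depends on the scale. Its mean in miRNA-CPM was higher with PNK in A4 (4916 without, 5896 with), A7 (7225 and 10704), E4 (8161 and 10375) and mock (4462 and 6111). In G8 it was lower (10554 and 6698). In the 13 libraries other than G8 libraries 1 and 2 MIR222 took 3991 to 8699 miRNA-CPM without PNK and 5807 to 11661 with it, while MIR221, with the same seed and from the same transcript, took 2703 to 6433 without and 1079 to 2554 with, ranges that do not overlap. The effect of PNK was not called as different between groups for any of the 10 members (edgeR interaction over 30 libraries, background 1.63%, with 0 members at an unadjusted p under 0.05). Without G8 library 3 of the arm without PNK, 4 members were called, and the share of all features called in that fit is not given here.

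**Figure D4:**
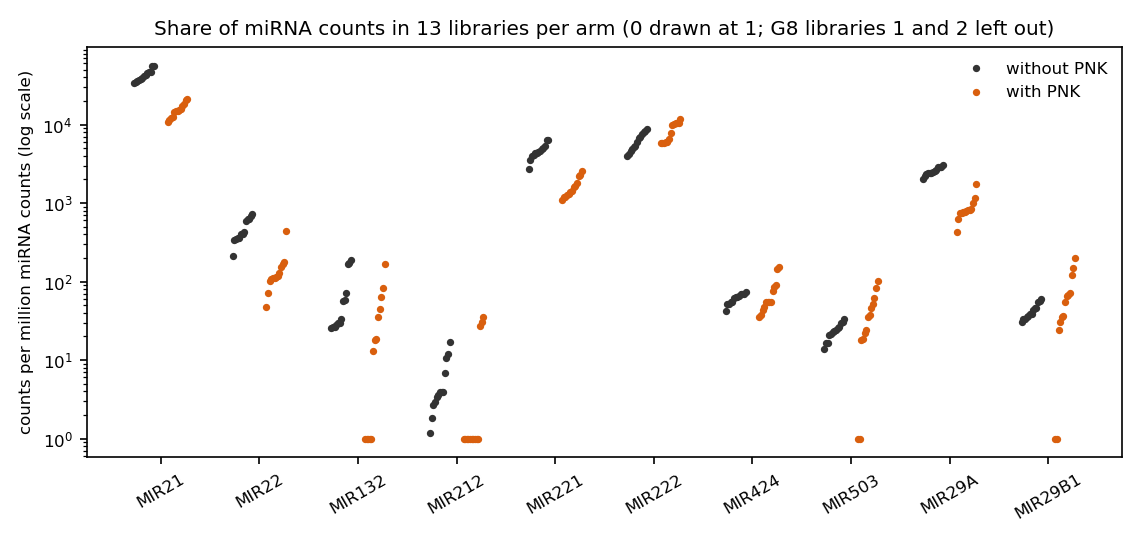
miRNA-CPM (vertical axis, log scale, 0 drawn at 1) of the 10 miRNA in 13 libraries without PNK (black) and 13 with PNK (orange), G8 libraries 1 and 2 left out; each point is 1 library, sorted by value. MIR21, MIR221 and MIR29A lie lower with PNK with no overlap, whereas MIR222 goes from 3991 to 8699 to 5807 to 11661.

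A list of other miRNA of myeloid maturation stands beside the members. Of 16 listed, 15 had a row and 14 were tested without PNK. Over the 4 THP-1 groups 3 of them were called, MIR125A, MIR181A2 and MIR181B2, where 32.4% of all features were, and edgeR called 0 in each comparison among A4, A7 and E4 or of these with mock. At an unadjusted p under 0.05 there was 1 in A4 and 1 in A7 against mock and 0 in the others, and DESeq2 called 0 in all 6. The lists were chosen with results of these data known, so these counts are a description. MIR155, a miRNA of activated macrophages, was at 5483 ± 373 CPM in A7, 4907 ± 332 in E4, 3830 ± 582 in A4 and 3261 ± 305 in mock. In CPM, like MIR222, it was higher in all libraries of A7 and E4 than in those of A4 and mock. As a share of miRNA, unlike MIR222, its A4 libraries (25032 to 27383 miRNA-CPM) overlapped those of E4 (25826 to 28078). With PNK 11, 10 and 10 of 13 tested were higher than mock in A4, A7 and E4, where 8.38%, 3.21% and 5.32% of all features were called as higher. The list's median differences were 1.43, 1.49 and 1.69, beside 0.94, 0.94 and 0.96 over 220 miRNA. Of 8 relatives by seed edgeR called 0 in each comparison between groups without PNK, with 0 to 2 at an unadjusted p under 0.05, and DESeq2 called 0 or 1. One of them, MIR16-2, which shares its seed with miR-424, stood at 528 ± 83.3 CPM in mock, 492 ± 4.58 in E4, 555 ± 68.2 in A7 and 431 ± 54.4 in A4. With PNK 4 relatives were tested and MIR16-2 was called, across the THP-1 groups (edgeR adjusted p = 0.0133) and as higher than mock in A4 (1.28, adjusted p = 0.0321) and A7 (1.35, adjusted p = 0.0407). MIR29C was at 7.34 ± 2.37 CPM in mock, 3.62 ± 1.01 in E4, 4.01 ± 1.45 in A7 and 2.96 ± 0.87 in A4.

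For each locus the miRNA whose log2 level ran most like that of its more abundant member was sought over the 12 THP-1 libraries without PNK, among 278 candidates and with factors from miRNA rows alone. These correlations are descriptions over libraries that share depth and the split of G8. MIR132 ran most like MIR363 (Pearson r = 0.946, and 0.946 over the 10 libraries without G8 libraries 1 and 2), MIR22 like MIR181A1 (0.976 and 0.984), MIR222 like MIR486-1 (0.895 and 0.843), MIR21 like MIR142 (0.994 and 0.931), MIR29A like MIR142 (0.990 and 0.763) and MIR424 like MIR99B (0.715 and 0.645).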

How the data were processed

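The authors deposited 1 table of read counts for annotated features, which hold whole numbers and were not normalized. They used, per the submitters' processing notes, Trim Galore, FastQC, Bowtie2 2.3.5.1, SAMtools 1.9, deepTools 3.2.1, bedtools 2.28.0 and GRCh38. The rule for counting reads with several alignments was not given in the sources used here. Judged by the values, strand was ignored and features that overlap each took the same read. From 175946 rows, 85846 that do not overlap were therefore kept, small RNAs first.

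R 4.3.3 and edgeR 4.0.16 served for the tests (quasi-likelihood fit, filterByExpr, TMM scaling, Benjamini-Hochberg over all features tested, threshold 0.05), over the 12 THP-1 or all 15 libraries of an arm, or over all 30. CPM uses the TMM factors of the 15 libraries of an arm. Shares of miRNA, given per 1000000 miRNA counts, divide by the library's miRNA counts. The ratios of paired miRNA add 0.5 counts. DESeq2 1.42.0, other factors, no filter, a replicate block and left-out libraries were alternatives. The procedures were tested on simulated data.

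Members and lists were chosen with earlier results of these data known. All 10 members are described. Of other miRNA the text names the nearest by correlation for each locus, MIR142, MIR155, MIR223, MIR16-2, MIR29B2 and MIR29C, as fixed by rule. The 3 called miRNA of the myeloid list were named after their values were seen. Deviations of same-numbered libraries correlated above 0.1 in all 3 pairs for A7 and mock (0.115 to 0.465) and A4 and E4 (0.358 to 0.684) without PNK, and for no other pair of groups or arm. Without PNK they were negative in all 3 pairs for mock with A4 (-0.727 to -0.341), E4 (-0.634 to -0.268) and G8 (-0.442 to -0.181).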

Additional observations from a re-analysis of the deposited data

How the results depend on the processing

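Counts of members called moved with many settings, as did those of all features, and the cause was not tested. Over the 4 THP-1 groups without PNK 572 of 1764 features were called in the main fit. With DESeq2 910 were called, with miRNA factors 936, with library totals 535 and with the replicate block 422. With no filter it was 517 of 27066. Between A4 and E4 it was 17 of 1764 in the main fit and 87 with DESeq2. No such number is given in this section for fits without any 1 library or without both G8 libraries 1 and 2. The counts of members in those fits are a description. The main count of members stands in brackets. Over the 4 THP-1 groups without PNK (0) the count was 3 with DESeq2, 3 with miRNA factors, 1 with library totals, 2 with no filter, 3 with the replicate block, 4 without G8 libraries 1 and 2, 4 when miRNA factors were added to that, and 0 to 9 without any 1 library. A4 minus A7 (0) gave 4 without G8 libraries 1 and 2, 3 with miRNA factors added, and 0 to 4 without any 1 library. A4 minus E4 (0) gave 1 with DESeq2, 3 without both G8 libraries, 4 with miRNA factors added, and 0 to 3. A4 minus G8 (2) gave 4 with miRNA factors, 1 with library totals, 4 with miRNA factors and without both G8 libraries, and 0 to 9. A7 minus G8 (1) gave 2 with DESeq2, 3 with library totals, 2 with no filter, 3 with the replicate block, 0 without both G8 libraries, and 0 to 9. E4 minus G8 (2) gave 0 with DESeq2 size factors, 1 with miRNA factors, 1 with no filter, 0 without both, 1 with miRNA factors and without both, and 0 to 9. Against mock without PNK, A4 (0) gave 1 with DESeq2, 1 with miRNA factors, 2 without both, 3 with miRNA factors added, and 0 to 2. A7 (1) gave 2 with DESeq2, 0 with library totals, 0 with the replicate block, 3 without both, 3 with miRNA factors added, and 0 to 3. E4 (2) gave 1 with miRNA factors, 1 with library totals, 1 with no filter, 1 with the replicate block, and 0 to 3. Of 1810 features 26 were called for A4 in the main fit, 88 with DESeq2 and 6 with miRNA factors. For A7 it was 7, 39 with DESeq2, and 0 with library totals or the replicate block. For E4 it was 78, 8 with miRNA factors, 49 with library totals and 54 with the replicate block. With no filter it was 34 of 29473 for E4. G8 (5) gave 3 without both, 2 with miRNA factors added, and 2 to 10. With PNK, the test across groups (3) gave 5 with no filter and 1 without both. A4 against mock (1) gave 0 with miRNA factors, library totals or the replicate block, 4 with no filter, 3 without both, and 0 to 2. A7 (2) gave 1 with each of those first 3 settings and 1 to 3. E4 (2) gave 1 with miRNA factors, and G8 (0) gave 0 to 1. Of 8554 features 1890 were called across groups with PNK, and 2387 of 44750 with no filter. Against mock it was 1030 of 9170 for A4, 4936 with miRNA factors, 2306 with library totals and 971 with the replicate block. With no filter it was 1139 of 47340. For A7 it was 454, 5089 with miRNA factors, 280 with library totals and 407 with the replicate block. For E4 it was 715, and 5074 with miRNA factors. The effect of PNK (10) gave 6 with miRNA factors, and its interaction with group (0) gave 2 with group and number as a replicate block and 0 to 4. Of 11438 features 10669 were called for the effect of PNK in the main fit and 11281 with miRNA factors. For the interaction it was 186 in the main fit and 360 with that block.

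Of 120 differences of a member in a comparison, 47 changed sign under at least 1 of other scaling factors or leaving out both G8 libraries; 2 of these were called before, 3 others after, and 0 both times. The 3 include MIR222 in G8 against mock without PNK (-0.039, and 1.34 with miRNA factors, adjusted p = 0.00807). Among differences followed through every setting, these changed sign. MIR221 in A4 minus G8 (0.42) was -1.07 without both G8 libraries, -0.39 with miRNA factors added, and -0.084 (G8 library 2) to 2.50 (G8 library 3) without any 1 library. MIR222 in A4 minus G8 (0.12) was -0.088 with DESeq2 or its size factors, -0.17 (G8 library 1) to 0.67 (G8 library 3) without any 1 library, -1.02 with miRNA factors, -0.77 without both and -0.10 with miRNA factors added. MIR222 in E4 minus G8 was -0.35, MIR222 in A4 against mock with PNK -0.10, and MIR503 with PNK 0.16, with miRNA factors. The adjusted p of the ratios ranged, without any 1 library, from 0.0227 to 0.778 for MIR221/MIR222 and from 0.0138 to 0.412 for MIR29A/MIR29B1. Depth limits MIR212 and, with PNK, all members but MIR21, MIR221, MIR222 and MIR29A. With PNK, and for the groups other than A7 with mock and A4 with E4, libraries share only a number. Leaving out both G8 libraries leaves G8 with 1 library, assumed to vary like the rest, and the fit with miRNA factors and without both was added after seeing the data.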
